A study of Mus musculus with 4 samples.

Results

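Keratins, claudins and epithelial adhesion genes were examined in single-cell RNA-seq of mouse lung tumors as a fixed set of 10 genes: the keratins Krt7, Krt8, Krt18 and Krt19, the claudins Cldn2, Cldn4, Cldn7 and Cldn18, and the adhesion genes Epcam and Cdh1. All 10 were found, by symbol, among the 31055 features of the count matrix. Their unique molecular identifiers (UMIs, counts of captured transcripts) were summed per cell type and, within epithelial cells, by the presence of Hopx, a gene of alveolar type I (ATI) cells.

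Total viable cells were sorted from dissociated lung tumors of 4 female mice, 16 weeks after tumors were started with Lenti-Cre. All 4 carried Lkb1XTR/XTR, and at Rosa26 the 2 Restored mice had Rosa26LSL-tdTomato/FLPo-ERT2 and the 2 Non-Restored mice Rosa26LSL-tdTomato. In both groups Cre switches on the red reporter tdTomato and sets a gene trap in Lkb1 (gene symbol Stk11), and FLPo-ERT2, carried by the Restored mice alone, removes that trap after tamoxifen. Tamoxifen was given in 4 mg doses over 2 weeks according to the label of every mouse, while the series text also names a corn oil vehicle, and no label gives an age.

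Counts of all 4 mice were deposited as 1 matrix of 20351 cells and 58624795 UMIs, with a median of 1960 UMIs per cell, and no file used here maps a cell to a mouse. Restored and Non-Restored cells were therefore not compared, and barcodes shared between libraries could not be counted. The matrix stands for 1 sample without replicates, so no test was run. Intervals are exact 95% intervals that cover counting error only, and whether the mice contributed unequally to 2 groups of cells was not tested. Levels are in CPM, the summed UMIs of a gene scaled to a total of 1000000 UMIs, from an assay that counts 3′ ends and so has no term for transcript length.

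Epithelial cells hold together through several linked systems. Keratin filaments are built from pairs of a type I chain, such as keratin 18 or 19, and a type II chain, such as keratin 7 or 8. Claudins span the membrane at tight junctions, where claudin 18 is abundant in alveolar cells, claudin 4 tightens the barrier and claudin 2 forms pores for cations. E-cadherin, the product of Cdh1, joins neighbouring cells at adherens junctions, and Epcam encodes a surface protein that binds claudin 7. Krt8, Krt19 and Cldn4 are also known from cells in transition between the alveolar type II (ATII) and ATI states after lung injury.

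In mm10, Krt7 (ENSMUSG00000023039), Krt8 (ENSMUSG00000049382) and Krt18 (ENSMUSG00000023043) lie on chromosome 15, at chr15:101411043-101430313, chr15:101996698-102004482 and chr15:102028180-102032027. Krt8 is on the minus strand and Krt18 on the plus strand, so the pair is transcribed away from each other. Krt19 (ENSMUSG00000020911) is at chr11:100140810-100148665. Of the claudin genes, Cldn7 (ENSMUSG00000018569) is at chr11:69964779-69967885, Cldn18 (ENSMUSG00000032473) at chr9:99689461-99717267, Cldn4 (ENSMUSG00000047501) at chr5:134945119-134946934 and Cldn2 (ENSMUSG00000047230) at chrX:139800828-139811386. Epcam (ENSMUSG00000045394) is at chr17:87635979-87651129 and Cdh1 (ENSMUSG00000000303) at chr8:106603351-106670246. These spans take in exons, introns and untranslated regions. Krt7, Krt8 and Cldn18 each overlap an annotated RNA gene on the other strand, namely Gm671, Gm36026 and Gm16004.

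RefSeq promoter windows of 300 bases (GRCm38.p6) around a transcript start were at hand for 8 of the 10 genes, and Krt19 and Cdh1 had no entry. Shown are the adjacent pair Krt8 and Krt18, the filament partners with the highest keratin levels, and Cldn4, the member with the largest share of its UMIs in cells with few ATII transcripts. Capitals mark letters that match a searched motif, AP-1 in Cldn4 and the TATA box in Krt8, where matches on both strands overlap, and the letters of each motif are given after the sequences. The windows are chr15:102004293-102004592 on the minus strand, chr15:102027966-102028265 on the plus strand and chr5:134946885-134947184 on the minus strand, each written 5′ to 3′.
Krt8: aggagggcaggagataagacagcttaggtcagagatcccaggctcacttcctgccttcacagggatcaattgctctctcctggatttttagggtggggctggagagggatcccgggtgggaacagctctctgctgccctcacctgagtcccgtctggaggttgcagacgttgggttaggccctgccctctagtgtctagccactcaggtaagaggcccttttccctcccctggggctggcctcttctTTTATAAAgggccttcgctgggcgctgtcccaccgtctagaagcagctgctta
Krt18: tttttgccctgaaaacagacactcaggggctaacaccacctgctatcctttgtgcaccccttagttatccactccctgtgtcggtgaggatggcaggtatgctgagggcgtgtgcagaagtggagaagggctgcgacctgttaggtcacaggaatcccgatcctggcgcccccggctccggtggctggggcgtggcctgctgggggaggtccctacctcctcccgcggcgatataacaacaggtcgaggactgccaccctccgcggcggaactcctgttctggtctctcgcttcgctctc
Cldn4: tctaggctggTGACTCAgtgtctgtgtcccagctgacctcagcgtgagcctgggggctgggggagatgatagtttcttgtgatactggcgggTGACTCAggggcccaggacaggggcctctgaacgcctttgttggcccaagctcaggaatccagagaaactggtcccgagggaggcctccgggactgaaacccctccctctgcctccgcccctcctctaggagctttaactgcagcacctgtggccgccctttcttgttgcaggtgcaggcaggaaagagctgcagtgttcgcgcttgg

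Cldn4 held TGANTCA at 2 places, starting at bases 11 and 93 of the window, and was the only one of the 8 genes with it, against 7.81% of all 32851 promoters. TATAAA was in Krt8 and Cldn2, against 13.6% of promoters, and GGAATG (TEAD) in Cldn2 and Cldn7, against 14.7%. AACCNGTT (Grainyhead-like), present in 2.09% of promoters, and TTGCNNAA (C/EBP), present in 10.8%, were in none of the windows of the 8 genes. Both strands were searched, and a match describes letters only.

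Cell types were gated on marker lists that held none of the 10 genes. Of 20351 cells, 19488 passed the filters and 16219 took a gate. The epithelial gate held 897 cells with a median of 3698 UMIs, and 97.4% of them had a TdTomato UMI. Its ATII marker Sftpc stood at 98638 CPM and the ATI marker Ager at 1195 CPM. In the 12 blood, vessel and stromal types of at least 50 cells Sftpc was at 28.7 to 137 CPM. A further 28 cells were gated as ciliated. Some cells of the epithelial clusters took no gate, as given below with the Cldn4 cells.

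All 10 genes were at least 2-fold higher in epithelial cells than in the other gated cells together, against 16.9% of 9182 genes. Cldn18 had the highest epithelial level at 1186 CPM (1150.3 to 1222), followed by the filament partners Krt18 at 724 CPM (696 to 753) and Krt8 at 595 CPM (570.2 to 621). Cldn7 was next at 406 CPM (385 to 428). Epcam at 284 CPM (266 to 302) and Krt19 at 265 CPM (249 to 283) had overlapping intervals, and so did Krt19 and Krt7 at 234 CPM (218 to 250.1), and Krt7 and Cdh1 at 212 CPM (197 to 228). Cldn4 at 31.2 CPM (25.6 to 37.5) and Cldn2 at 13.2 CPM (9.70 to 17.5) were far below the rest. In the 208 epithelial cells with 0 blood, endothelial and stromal marker UMIs, Krt7 (465 CPM), Krt8 (936 CPM), Krt19 (503 CPM) and Cldn4 (67.5 CPM) were more than 1.5 times higher and Cldn2 (3.97 CPM) was lower. Of these 208 cells, 101 had a Hopx UMI and 85 had less than 5% of their UMIs from ATII genes. In the whole gate of 897 cells these counts were 282 and 200. The part of this mix in the levels was not tested.

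Of the 28 cells gated as ciliated, 22 lay in the ciliated cluster. In the gate Krt8 at 1136 CPM (954 to 1344) and Krt18 at 953 CPM (786 to 1144) had the highest levels of the 10 genes. Krt19 (635 CPM) and Cldn7 (627 CPM) were not told apart. Cdh1 at 459.6 CPM (346 to 598) and Epcam at 393 CPM (289 to 522) had lower point values, with intervals that overlap those of Krt19 and Cldn7. Cldn18 was at 242 CPM (162 to 348), below its level in the epithelial gate. Cldn2 had 0 UMIs, which allows up to 25.1 CPM.

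**Figure D1:**
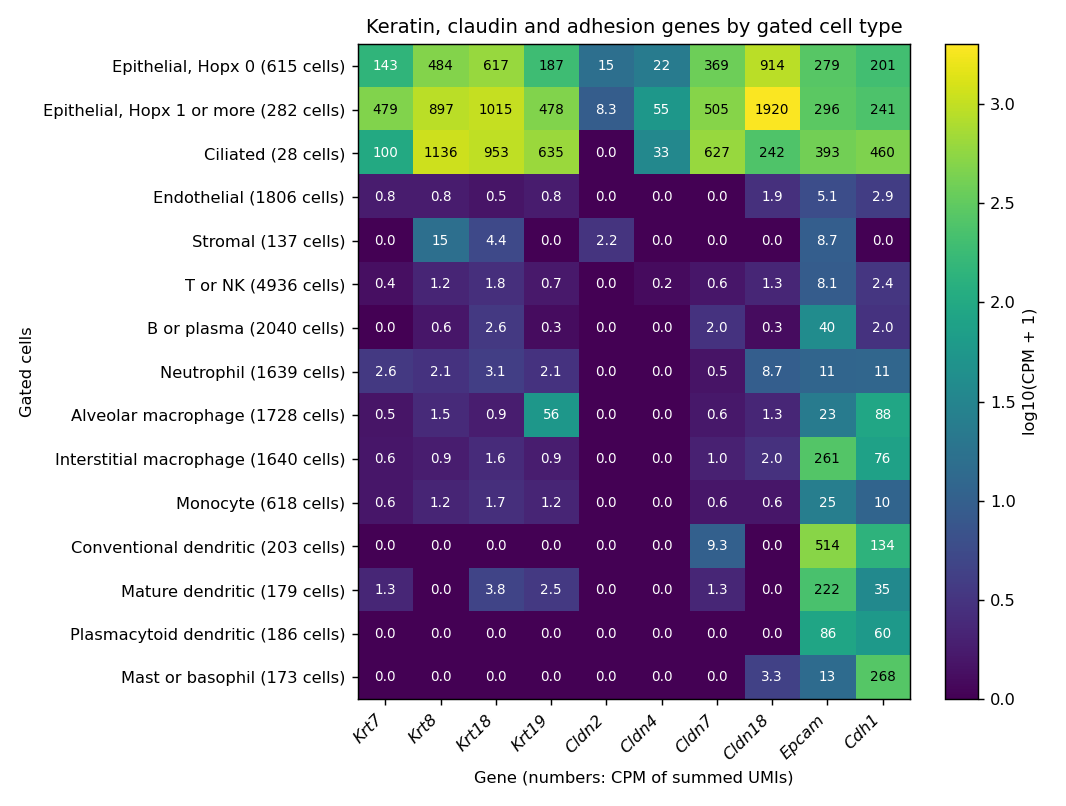
Levels of the 10 genes in gated cell types, in CPM of summed UMIs. The keratins other than Krt19 and the claudins stay at or below 15.2 CPM in the 12 blood, vessel and stromal types, while Epcam reaches 514 CPM in gated conventional dendritic cells (327 CPM without cluster 0, 203 CPM with cell types from clusters) and Cdh1 268 CPM in mast cells or basophils.

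Outside the epithelium, 7 of the 10 genes were low in every one of the 12 types. Krt7, Krt8, Krt18, Cldn2, Cldn4, Cldn7 and Cldn18 reached at most 15.2 CPM, the level of Krt8 in the 137 stromal cells (7 UMIs, 6.13 to 31.4). Cldn4 had 0 UMIs in 11 of the 12 types and so had Cldn2. Epcam, Cdh1 and Krt19 were present in some of them at much higher levels.

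Epcam levels outside the epithelium depended, to a different extent by cell type, on 1 cluster of cells, cluster 0, which several gates shared and which is described below. By gate, conventional dendritic cells had 514 CPM (472 to 558), a log2 ratio to the epithelium of 0.86 (0.70 to 1.01). Of these 203 cells 52 lay in cluster 0, and the 151 others had 327 CPM (288 to 369), an interval that overlaps the epithelial one. With cell types from clusters the level was 203 CPM (180.1 to 228), below the epithelium, but this is cluster 22, which is mixed. Its 122 gated conventional dendritic cells had 336 CPM (291 to 386). Its 163 cells without a gate had 138 CPM and its 44 gated monocytes 38.2 CPM.

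Interstitial macrophages had 261 CPM (249 to 273) by gate but 27.5 CPM (22.6 to 33.2) without cluster 0. Mature dendritic cells had 222 CPM (191 to 258) and 193 CPM (163 to 227), and plasmacytoid dendritic cells 85.7 CPM and 47.1 CPM, in that order. B or plasma cells kept 36.5 of 39.6 CPM. Monocytes (25.1 CPM) and alveolar macrophages (22.8 CPM) came down to 6.04 CPM (2.90 to 11.1) and 7.82 CPM (6.12 to 9.84), intervals that overlap those of T or NK cells (7.41 CPM) and endothelial cells (5.07 CPM). In conventional dendritic cells Sftpc was at 28.7 CPM (19.5 to 40.7), and Krt7, Krt8, Krt18 and Cldn18 had 0 UMIs.

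By the share of cells with an Epcam UMI, gated conventional dendritic and epithelial cells had overlapping intervals. With every cell cut down at random to 1000 UMIs (thinned), 26.6% of 203 conventional dendritic cells (20.7 to 33.2) and 23.9% of 849 epithelial cells (21.1 to 26.9) had one. In the mixed cluster 22, named by its markers as conventional dendritic cells, the share was 10.8% (7.73 to 14.5). In endothelial cells, which should lack the gene, it was 0.185% (0.0381 to 0.539). Without thinning, 58.1% of conventional dendritic cells (median depth 5089 UMIs), 59.6% of epithelial cells (3698) and 0.332% of endothelial cells (1874) were positive.

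The interstitial macrophage gate was not uniform for Epcam. Clustering without the 10 genes put 997 of its 1640 cells in cluster 10, whose leading genes include Apoe, C1qa, C1qb and C1qc, and 615 in cluster 0, whose leading genes include Asgr2, Ccl17, Mmp12 and Mgl2. Epcam was at 18.2 CPM (14.2 to 23.0) in the former cells and 569 CPM (542 to 596) in the latter. Cdh1 had the same order, with 7.30 CPM and 163 CPM. Cluster 0 as a whole held 1503 cells, of which 771 took no gate and had 838 CPM of Epcam. The marker lists put the cluster with interstitial macrophages when cell types came from clusters, a group that then had 480.5 CPM (468 to 493), while cluster 10 alone had 19.3 CPM. It is called by its number here. In all its cells Epcam was at 735 CPM (716 to 755), while Krt8 was at 0.665 CPM, Sftpc at 80.8 CPM and TdTomato at 78.4 CPM. The look by cluster and the levels without cluster 0 were chosen after the values were seen, and 8 cells of cluster 0 were marked as doublets by Scrublet.

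Cdh1 was at 268 CPM (213 to 333) in the 173 mast cells or basophils, and the interval of its log2 ratio to the epithelium included 0 (0.34, -0.01 to 0.67). The same cells had 13.2 CPM (3.60 to 33.8) of Epcam, so the adhesion genes peaked in different blood cells. Without cluster 0, Cdh1 went from 134 to 57.0 CPM in conventional dendritic cells and from 75.9 to 9.51 CPM in interstitial macrophages. Alveolar macrophages had 88.2 CPM (82.3 to 94.5) and plasmacytoid dendritic cells 59.8 CPM, against 83.5 and 52.1 CPM without it. Endothelial, B or plasma and T or NK cells had 2.01 to 2.93 CPM, and stromal cells had 0 UMIs. After thinning, 21.7% of 161 mast cells or basophils (15.6 to 28.9) had a Cdh1 UMI, against 19.0% of epithelial cells and 0.0615% of endothelial cells. Unthinned, the shares were 33.5%, 48.4% and 0.498%.

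Krt19 was found in alveolar macrophages with few UMIs of the other keratins. Its level in the 1728 cells was 55.5 CPM (50.8 to 60.5), against at most 2.53 CPM in the other 11 types, while Krt8 was at 1.5 CPM and Krt18 at 0.856 CPM. The ratio of type I to type II chains among the 4 keratins was 27.7 (17.6 to 46.4) there and 1.19 (1.14 to 1.25) in the epithelium. Krt79, a type II keratin outside the 10, was at 18.7 CPM (16.0 to 21.7) in alveolar macrophages and 0.842 CPM in the epithelium. After thinning, 5.31% of alveolar macrophages had a Krt19 UMI (4.29 to 6.49), against 0.0455% of T or NK cells, and without thinning 20.5% and 0.122%.

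Alveolar macrophages also carried TdTomato, at 2651 CPM, against 5703 CPM in the epithelium and at most 211 CPM in the other types. In a split chosen after values were seen, Krt19 was at 45.9 CPM (29.7 to 67.8) in the 120 alveolar macrophages without a TdTomato UMI and 57.5 CPM (52.0 to 63.5) in the 1202 with 10 or more, with overlapping intervals. Epcam was at 180.0 CPM (146 to 219) and 8.05 CPM (6.06 to 10.5), and 25 cells of the alveolar macrophage gate lay in cluster 0, with 1018 CPM.

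**Figure D2:**
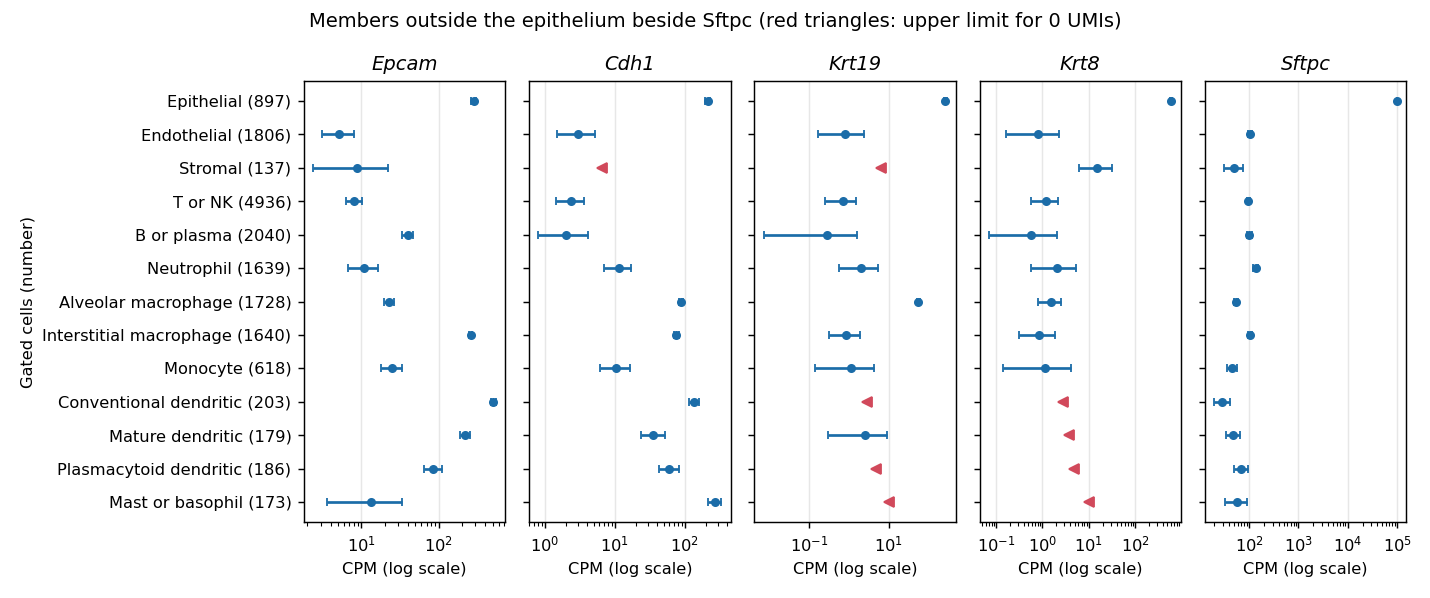
CPM of Epcam, Cdh1, Krt19, Krt8 and the ATII gene Sftpc in gated cell types on log axes, with exact 95% Poisson intervals. By gate, Epcam is above the epithelial level in conventional dendritic cells (327 CPM without cluster 0, 203 CPM and below it from clusters) and Cdh1 comes up to it in mast cells or basophils, where Sftpc is at 28.7 and 56.2 CPM.

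Within the epithelial gate, 282 of 897 cells had a Hopx UMI and 615 had none. Of the 10 genes, 4 were at least 2-fold higher in cells with Hopx (2 with cell types from clusters), against 5.89% of 8011 genes, and 0 were 2-fold lower, against 4.66%. The median log2 ratio was 0.81 for the 10 genes and 0.09 for all genes counted. Cells with Hopx were shallower, at a median of 2981 UMIs against 4133. Their pan-leukocyte markers summed to 85.3 CPM against 164 CPM and their T or NK markers to 56.1 CPM against 37.7 CPM, and the part of these in the ratios was not tested. A Hopx UMI was present in 19.7% of thinned epithelial cells, 4.70% of thinned T or NK cells and 1.41% of thinned B or plasma cells.

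All 4 keratins were higher with Hopx. Krt7 was at 143 CPM (129 to 158) without and 479 CPM (437 to 525) with Hopx, a log2 ratio of 1.75 (1.55 to 1.95). Krt19 was at 187 CPM (170.3 to 204) and 478 CPM (436 to 524), a ratio of 1.36 (1.17 to 1.55). The filament partners Krt8 and Krt18 had smaller ratios of 0.89 (0.77 to 1.02) and 0.72 (0.60 to 0.83), from 484 to 897 CPM and from 617 to 1015 CPM. Together the 4 keratins took 1429.5 CPM without and 2869.7 CPM with Hopx. Type I UMIs per type II UMI stood at 1.28 (1.20 to 1.37) and 1.08 (1.01 to 1.17).

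Among the claudins, Cldn18 was at 914 CPM (878 to 952) without and 1920.4 CPM (1834 to 2010) with Hopx, a log2 ratio of 1.07 (0.98 to 1.16) that fell below 2-fold with cell types from clusters (0.99), without upper limits on genes and mitochondrial share (0.97) and in CPM over the UMIs outside the ATII list (0.96). Cldn4 had a ratio of 1.30 (0.74 to 1.87) from 53 UMIs with and 58 without Hopx. The Cldn4 ratio turned on the setting, since it was 2.07 (1.42 to 2.74) without the 1 cell that held 24 of the 58 UMIs, 0.64 (0.14 to 1.14) with cell types from clusters and -0.83 (-2.80 to 0.68) when cells were thinned before the split. Cldn7 differed less, at 369 and 505 CPM (0.45, 0.29 to 0.61). Cldn2 had 39 UMIs without and 8 with Hopx, and its ratio of -0.85 had an interval that included 0 (-2.16 to 0.27). Without the 1 cell that held 11 of the 39 UMIs, the Cldn2 ratio was -0.38 (-1.72 to 0.80). It was -1.80 (-3.08 to -0.72) without upper limits on genes and mitochondrial share and -1.99 (-5.09 to -0.04) for 2 or more Hopx UMIs against 0.

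The adhesion genes differed least. Epcam was at 279 CPM without and 296 CPM (263 to 333) with Hopx, a log2 ratio of 0.09 (-0.12 to 0.29). For Cdh1 the levels were 201 CPM (184 to 219) and 241 CPM (211 to 274), a ratio of 0.26 (0.03 to 0.49). After thinning, 24.1% of cells without and 23.4% of cells with Hopx had an Epcam UMI, whereas for Krt7 the shares were 11.5% and 35.2% and for Cldn18 52.4% and 77.3%.

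Cells were further divided by their number of Hopx UMIs, with 108 cells at 1, 79 at 2 to 3 and 95 at 4 or more. Cells just inside the threshold, with 1 Hopx UMI, already had 348 CPM (295 to 409) of Krt7 and 1470.0 CPM (1358 to 1589) of Cldn18. At 4 or more, Krt7 was at 704 CPM (607 to 813) and Cldn18 at 2708 CPM (2513 to 2913). Krt8 was at 1111 CPM (987 to 1245) in cells with 2 to 3 and 892 CPM (782 to 1014) in cells with 4 or more. Cldn2 had 0 UMIs in the last group, which allows up to 11.3 CPM. The median percentage of a cell's UMIs from 12 ATII genes was 15.8% without Hopx and 1.02% at 4 or more.

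**Figure D3:**
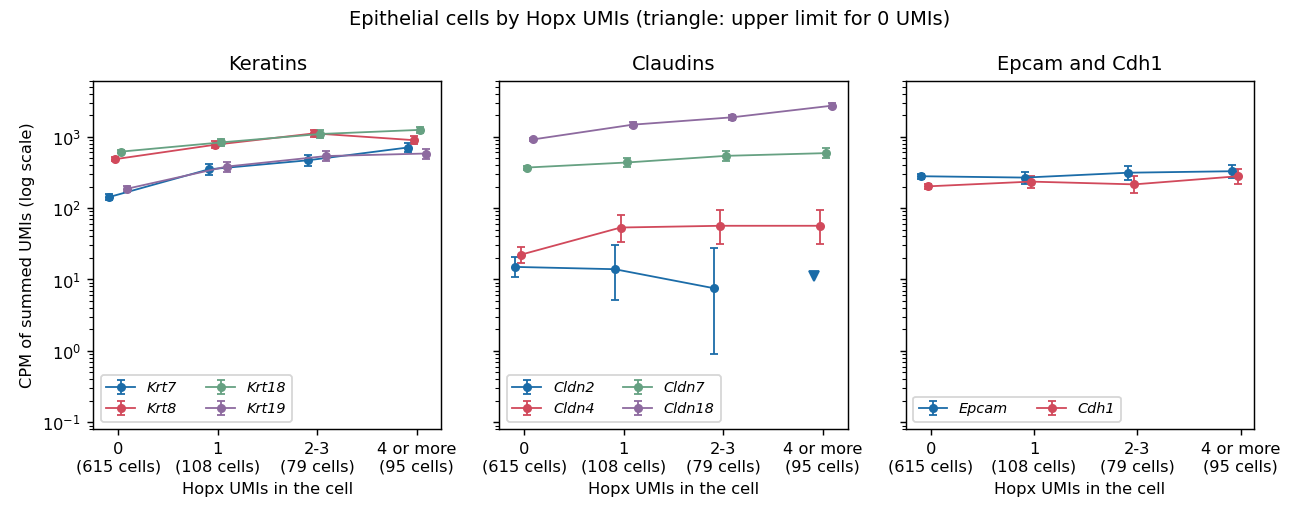
CPM of summed UMIs on a log axis in epithelial cells with 0, 1, 2 to 3 and 4 or more Hopx UMIs, with exact 95% Poisson intervals and a triangle for the upper limit at 0 UMIs. Krt7 runs from 143 to 704 CPM and Cldn18 from 914 to 2708 CPM, while Epcam stays between 267 and 328 CPM.

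Epithelial cells were also divided, in a comparison chosen after values were seen, by whether the 12 ATII genes made up less than 5% of their UMIs. This gave 200 ATII-low and 697 ATII-high cells, with 153 cells within 2-fold of that threshold. ATII-low cells were shallower (median 2316 UMIs against 4249). In them 8 of the 10 genes were at least 2-fold higher, against 13.3% of 8204 genes, and 0 were 2-fold lower, against 8.01%. The median log2 ratio was 1.97, against 0.26 over all genes.

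With all cells, Cldn4 had the largest of the 10 ratios, at 163 CPM (131 to 200.5) in ATII-low and 7.30 CPM (4.57 to 11) in ATII-high cells, or 4.48 (3.79 to 5.23) on the log2 scale. Without the 1 cell that held 24 of the 89 ATII-low UMIs, the Cldn4 ratio was 4.04 (3.32 to 4.81), from 120 CPM in ATII-low cells. Cldn2 was at 2.90 (2.01 to 3.81), an interval that contains those of Krt19 and Krt7, from 27 UMIs in 9 cells against 20 UMIs in 8 cells. Without the cell that held 11 of the 20, Cldn2 was at 4.05 (2.92 to 5.32), an interval that overlaps both of those given for Cldn4. Among keratins, Krt19 was at 2.69 (2.51 to 2.88), Krt7 at 2.51 (2.31 to 2.71), Krt8 at 2.14 (2.02 to 2.27) and Krt18 at 1.80 (1.68 to 1.91). Cldn18 had a ratio of 1.39 (1.29 to 1.48) and Cldn7 of 1.05 (0.88 to 1.22). The adhesion genes Epcam at 0.67 (0.45 to 0.89) and Cdh1 at 0.51 (0.25 to 0.77) again differed least. ATII transcripts summed to 160796 CPM in ATII-high and 14027 CPM in ATII-low cells, and with levels taken over the other UMIs 7 of the 10 genes were 2-fold higher. The Cldn4 ratio was 2.88 (1.64 to 4.32) and that of Krt19 2.10 (1.70 to 2.5) in cells with 0 blood, endothelial and stromal marker UMIs, and that of Cldn2 was 1.81 (0.82 to 2.73) with the threshold at 2.5%.

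With both divisions crossed, Krt8 and Krt18 were highest in the 62 ATII-low cells without Hopx. There Krt8 was at 2128 CPM (1924 to 2348) and Krt18 at 2236 CPM (2026 to 2461), against 1518 CPM (1394 to 1651) and 1613 CPM (1484 to 1749.5) in the 138 ATII-low cells with Hopx. Epcam was at 554 CPM (452 to 671) against 341 CPM (284 to 407). Cldn18 had the opposite order, at 2134 CPM without and 2668 CPM with Hopx, a log2 ratio of 0.32 (0.15 to 0.49).

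Within ATII-low cells, 0 of the 10 genes were 2-fold higher with Hopx, against 15.7% of 8911 genes, and 2 were 2-fold lower, against 16.5%, namely Cldn2 at -2.20 (-3.60 to -0.94) and Cldn4 at -1.18 (-1.82 to -0.55). Both ratios moved when a single cell without Hopx was left out. For Cldn4 1 cell held 24 of the 48 UMIs there, and without it the levels were 133 CPM without and 114 CPM with Hopx, a log2 ratio of -0.22 (-0.98 to 0.57). For Cldn2 1 cell held 9 of 19 UMIs. The ratio without it was -1.32 (-2.86 to 0.17), still past 2-fold, with an interval that includes 0. The 8 Cldn2 UMIs with Hopx lay in 2 cells. Within ATII-high cells, 2 of the 9 genes counted were 2-fold higher with Hopx, against 5.02% of 7724 genes, and 0 were 2-fold lower, against 4.78%. The higher genes were Cldn4 at 2.27 (0.93 to 3.64), from 12 UMIs with and 10 without Hopx, and Krt7 at 1.5 (1.21 to 1.79). Krt19 was at 0.91 (0.61 to 1.21) and Epcam at 0.06 (-0.20 to 0.32) in the same comparison.

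**Figure D4:**
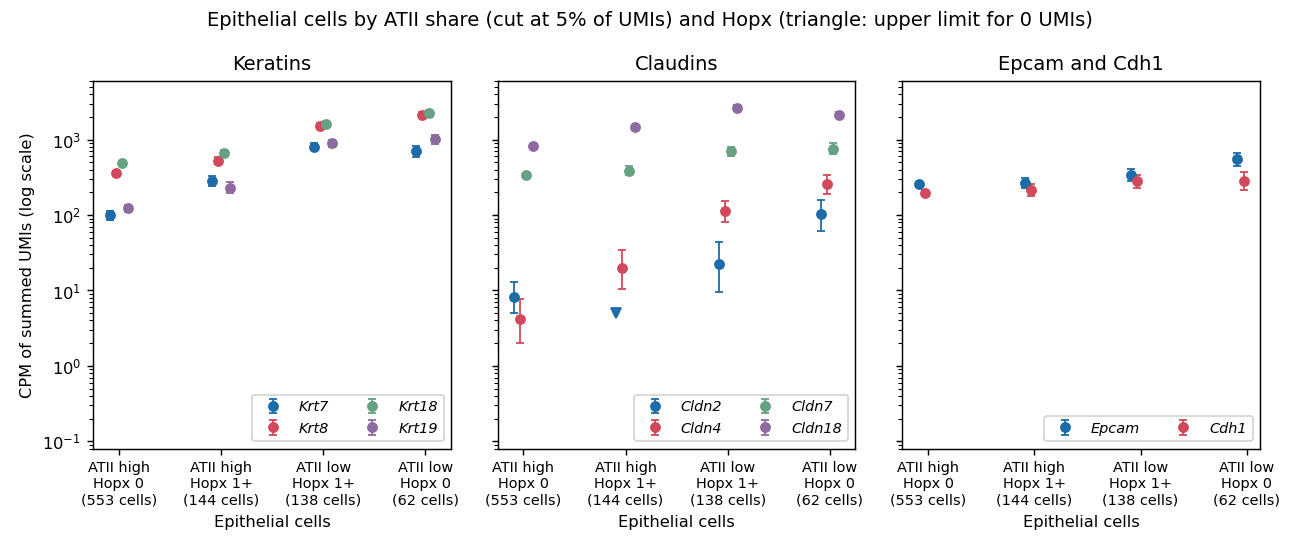
CPM of summed UMIs on a log axis in 4 groups of epithelial cells divided by ATII percentage and Hopx, with exact 95% Poisson intervals and a triangle for the upper limit at 0 UMIs. Krt8, Krt18 and Epcam have their highest levels in ATII-low cells without Hopx (2128 CPM for Krt8) and Cldn18 in those with Hopx (2668 CPM), while in the former group 1 cell holds 24 of 48 Cldn4 UMIs and 1 cell 9 of 19 Cldn2 UMIs.

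UMIs of the 10 genes were unevenly spread over cells. Cldn18 had a UMI in 770 of the 897 epithelial cells and Krt18 in 705, while Cldn4 had a UMI in 60 and Cldn2 in 17. The 90 cells with the most UMIs of a gene held 33.7% of the Cldn18 UMIs, 48.1% of the Krt8 UMIs and 54.3% of the Krt19 UMIs. The ATII-low cells held 80.2% of the Cldn4 UMIs, 54.0% of the Krt19 UMIs and 20.5% of the Cdh1 UMIs. They were 22.3% of the epithelial cells and held 546301 of the 3561286 epithelial UMIs of all genes.

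Cells with Cldn4 and cells with Cldn2 were then described apart, a comparison chosen after values were seen. Both were counted in the epithelial gate alone. Of the 280 cells of cluster 20, an epithelial cluster with 163 CPM of Cldn4, 32 took no gate and are left out. Those 32 had 1841 CPM of Krt8 and 4411 CPM of Sftpc. All 3269 cells without a gate had a log2 ratio to the epithelium of -3.17 (-3.76 to -2.62) for Cldn4. The 60 cells with a Cldn4 UMI, of which 40 were ATII-low and 33 had Hopx, had a median of 3654.5 UMIs, and the other 837 epithelial cells 3703. All 60 had a TdTomato UMI, and 44 had a single Cldn4 UMI. Krt19 was at 1261 CPM against 195 CPM in cells without Cldn4, a log2 ratio of 2.69 (2.49 to 2.89), Krt7 at 933 CPM against 184 CPM (2.34) and Krt8 at 2338 CPM against 472 CPM (2.31). Cldn18 (1.16), Cldn7 (1.13), Epcam (0.96) and Cdh1 (0.62) had smaller ratios. A list of 10 genes of the ATII to ATI transition summed to 9770.5 CPM against 2596 CPM, with Clu at 3.31 (3.20 to 3.43) and Sfn, the 14-3-3 sigma gene, at 3.13 (2.69 to 3.56). The ATII gene Sftpc was lower, at -1.68 (-1.72 to -1.65).

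Cells with Cldn2 did not have the higher keratin levels. There were 17, of which 9 were ATII-low, 2 had Hopx, 16 had TdTomato and 8 had a single Cldn2 UMI, and they were deeper than the other 880 (median 4735 UMIs against 3676.5). Krt8 was at 407 CPM against 600.1 CPM in the other cells, a log2 ratio of -0.56 (-1.08 to -0.09), and Cldn18 at 747 CPM against 1197 CPM (-0.68, -1.05 to -0.33). The intervals of Krt7 (-1.45 to 0.18), Krt19 (-1.15 to 0.28) and Epcam (-0.09 to 0.95) included 0. The transition list summed to 5701 CPM against 3002 CPM (0.93, 0.79 to 1.05). Clu, at 2.38 (2.20 to 2.56), held 290 of the 504 list UMIs in the cells with Cldn2. Of the rest of the list, Anxa1 was higher (0.88, 0.31 to 1.39) and Cdkn1a lower (-0.98, -1.69 to -0.35). The intervals of the other list genes included 0. Sftpc was lower (-0.63, -0.67 to -0.59). Named after their values were seen, Guca2a, which encodes guanylin, was at 362 CPM against 2.88 CPM, with UMIs in 7 of the 17 cells, and the transcription factor gene Sox9 at 181 CPM against 10.1 CPM, with UMIs in 8. The club cell gene Scgb1a1 was at 701 CPM against 22.7 CPM. Of the 17 cells with Cldn2, 1 also had a Cldn4 UMI, and both kinds of cell are too few to tell whether the 2 genes avoid each other.

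**Figure D5:**
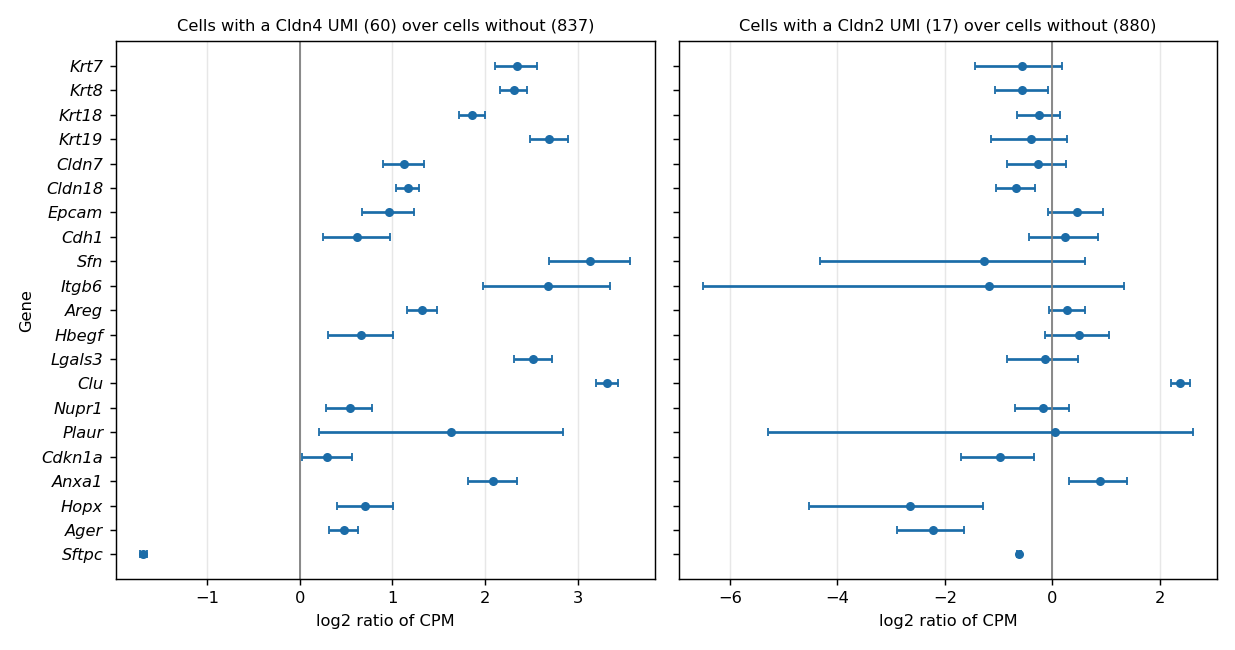
log2 ratio of CPM in epithelial cells with a Cldn4 UMI over cells without it and in cells with a Cldn2 UMI over cells without it, with exact conditional 95% intervals. The 4 keratins lie between 1.86 and 2.69 for Cldn4 and between -0.57 and -0.25 for Cldn2.

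Pairs of genes were counted in the 849 epithelial cells thinned to 1000 UMIs. UMIs of Krt7 and Krt19 met in 62 cells, 1.91 times the number that the product of their shares gives, and those of Krt8 and Krt19 in 101, 1.63 times. For the filament partners Krt8 and Krt18 this was 174 cells and 1.25 times. Of the 21 thinned cells with Cldn4, 18 had Krt8 and 20 had Cldn18. Epcam met Cdh1 in 42 cells (1.09 times) and Cldn7, whose protein it binds, in 74 cells (1.04 times). Of the 8 thinned cells with Cldn2, 0 had Krt7 or Krt19, where the products of shares give only 1.53 and 1.60 cells. Without thinning, 9 of the 17 cells with Cldn2 had a Krt7 UMI and 7 had a Krt19 UMI. These cells mix states, and 12 pairs of genes reached 1.5 times the product, against 2 pairs without thinning. The ratio to the product cannot exceed 1 over the larger of the 2 shares, so pairs of common and of rare genes are not on 1 scale. Without thinning, Krt8 (67.6% of cells), Krt18 (78.6%), Cldn7 (69.5%) and Cldn18 (85.8%) were too common for any of their pairs to reach 1.5 times.

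Other genes of the same structures were counted from lists, beside the 5.89% of all genes that were 2-fold higher with Hopx and the 4.66% that were lower. Of 17 other tight junction genes, 4 were at least 2-fold higher with Hopx and 1 was 2-fold lower. The scaffold genes Magi1 (log2 ratio 1.38, 0.80 to 1.96), Magi3 (1.24, 0.87 to 1.62) and Tjp1 (1.22, 0.84 to 1.61) were higher, and Tjp3 was lower (-1.32, -2.60 to -0.24). Of 9 hemidesmosome and basement membrane adhesion genes counted, 4 were 2-fold higher and 0 lower. These were the integrin genes Itgb6 (2.51, 1.85 to 3.20) and Itga3 (1.38, 0.80 to 1.96), the laminin gene Lama3 (2.25, 1.62 to 2.91) and the tetraspanin gene Cd151 (1.20, 0.82 to 1.57). Of 12 adherens junction genes, 1 was 2-fold higher, the nectin gene Nectin3 (1.17, 0.74 to 1.60). The count was 0 of 6 for desmosome genes, with the plakophilin gene Pkp2 at 0.73 (0.23 to 1.22), and 0 of 8 for EPCAM-associated membrane genes, with the tetraspanin gene Cd9 at 0.73.

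Few keratins and claudins beyond the 10 were present in epithelial cells. Of 13 other keratin genes, 7 had 0 UMIs in epithelial cells. Krt23 was at 66.2 CPM without and 45.7 CPM with Hopx (-0.53, -1.04 to -0.05), and Krt80 at 6.54 and 17.7 CPM (1.43, 0.38 to 2.49). Of 16 other claudin genes in the matrix, 8 had 0 UMIs, and 1 was counted: Cldn3, at 689 CPM without and 964 CPM with Hopx (0.48, 0.37 to 0.60). Outside the epithelium Cldn5 reached 1437 CPM in endothelial cells and Cldn1 163 CPM in conventional dendritic cells. Krt80 was at 145 CPM in endothelial cells and 129 CPM in monocytes, against 9.55 CPM in the epithelium. Of 7 regulators of epithelial and mesenchymal state counted, 0 were 2-fold higher with Hopx and 2 were lower, against 4.66% of all genes, namely Vim (-1.92, -2.83 to -1.12), a mesenchymal filament gene, and Ehf (-1.51, -2.28 to -0.81), an epithelial transcription factor gene that is also a marker of the gate. Vim was at 2469 CPM in alveolar macrophages, and pan-leukocyte markers were lower with Hopx as well, and their part in the Vim ratio was not tested.

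Among genes outside the lists, those with a pattern most like Epcam, Krt19 and Cldn18 were named by Pearson's r of log2(CPM + 10) over 14 points, which are the epithelium with and without Hopx and the 12 other types, all from 1 matrix. Mal2 (0.995), Tmem125 (0.995) and Wwc1 (0.995) were most like Cldn18, and Liph (0.961), Cdc42bpg (0.952) and Grb7 (0.952) most like Krt19. For Epcam the values were lower, with Ccdc122 at 0.860, Ctsh at 0.846 and Flrt3 at 0.844. Flrt3, like Epcam, was among the leading genes of cluster 0, and had 100.5 CPM in interstitial macrophages and 34.5 CPM in the epithelium.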

How the data were processed

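Total viable lung tumor cells of 4 mice were profiled with a droplet 3′ single-cell assay. The authors deposited 1 matrix of UMI counts per feature and cell, not normalized, pooled over the mice, made with Cell Ranger 3.0.2 against mm10 with GFP and TdTomato added, per the labels and the methods of the study. Duplicated molecules are collapsed by UMI, and the whole range of depth was 500 to 46658 UMIs per cell.

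Cells with at least 200 genes and below the 98th percentile of genes (2713) and mitochondrial share (13.4%) were kept. Each cell took the gate whose marker list held the largest share of its UMIs relative to that list's share in all kept cells, with at least 2 distinct markers, a ratio above 2 and a margin of 2 times over the next list. Counts were summed per group and divided by the group's UMIs, giving CPM. Ratios are log2 of CPM without a pseudocount, with exact conditional intervals. Levels have exact Poisson and shares exact Clopper-Pearson intervals. A gene was counted at 10 CPM or more in either group, and called at a 2-fold difference. For shares and pairs each cell was thinned to 1000 UMIs, leaving out shallower cells (849 of 897 epithelial cells were used). Doublets were not removed. Scrublet marked 191 cells (0.939%), of which 3 were epithelial, in a matrix that mixes libraries. Clustering used scanpy 1.11.5, and the rest Python 3.11.15 with numpy 2.4.6, scipy 1.17.1 and pandas 2.3.3. Ratios and intervals were tested on simulated counts, drawn as Poisson or binomial totals without single cells. That simulation could not check the effect of UMIs clumped in 1 cell, as seen for Cldn4.

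All 10 members are given. Up to 4 genes per related list were named, those with the largest absolute Hopx ratio among genes with at least 20 UMIs, besides list genes over 100 CPM outside the epithelium and above their epithelial level, of which a selection is given, and the 3 genes most like Epcam, Krt19 and Cldn18. The members and lists were chosen with earlier results of these data known, and how gates are scored was settled once some values had been looked at. Restored and Non-Restored mice were not compared because cells carry no mouse label in the files used here. Alternatives covered filters, gates, doublets, depth, the Hopx and ATII thresholds and the denominator of CPM. Part of the genotype that all mice share, and a gene of a related list, are not reported here.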

Additional observations from a re-analysis of the deposited data

How the results depend on the processing

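Across the alternatives, 491 values were recomputed, of which 373 moved by less than their counting interval or, for counts of genes, by less than 1.5 times, 117 moved further and 1 ratio of 2-fold or more changed sign. There were 3 other changes of sign, in the Hopx ratios of Epcam and Cdh1, which reached -0.02 and -0.03. The 4 members called at 2-fold with Hopx became 2 with cell types from clusters, a gate of 948 epithelial cells. The 10 related genes 2-fold higher with Hopx became 21 when only the 208 epithelial cells with 0 blood, endothelial and stromal marker UMIs were used and 16 when cells were thinned to 1000 UMIs before the split. The share of epithelial cells with a UMI of any member, 93.2% when thinned to 1000 UMIs, was 78.3% at 500 UMIs, 98.7% at 2000, 97.99% without thinning and 96.7% in the cells with 0 such marker UMIs. The 12 gene pairs that met at 1.5 times the product of their shares, most of them with Cldn4, became 5 at 2000 UMIs and 2 without thinning. Shares rise with depth, which lowers the highest value that this ratio can take. The Cldn4 Hopx ratio changed sign, to -0.83, when cells were thinned before the split, at -2.80 to 0.68. Apart from that limit on the pairs, the cause of these shifts was not tested. The Hopx ratio ran from 1.36 to 2.04 for Krt7, from 0.96 to 1.32 for Cldn18 and from -0.02 to 0.20 for Epcam. Depth limits Cldn2 and Cldn4 most, with 47 and 111 epithelial UMIs. Leaving out cluster 0, and leaving out the cell with the most UMIs of a gene, were chosen after the values were seen. Leaving out a mouse was not run. No paired analysis was possible because the matrix holds no label of mouse or replicate for any cell.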
